A study of Mus musculus with 8 samples.

Results

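Acta2, Tagln, Myl9, Actc1, Cald1, Cnn1, Cnn2, Tpm1 and Tpm2 are genes of the contractile apparatus of smooth muscle. Together with the annexin gene Anxa1 they were followed here in mouse embryonic stem cells that lacked the histone demethylases Jmjd1a, Jmjd1b or both. The 10 genes were chosen from results of the same arrays: Acta2, Tagln and Actc1 were known to be low in cells without Jmjd1b and Myl9 in cells without Jmjd1a, each against wild type. Those 4 differences are therefore given as a description, without a test. All probe sets with a single gene symbol among the 10 were taken, and a probe set counted as measured if its values spanned at least 0.01 on the log2 scale over the 8 arrays. This left 13 measured probe sets of 23 for the 10 genes, among 11502 measured of 45101 on the array, and each of the 10 genes kept at least 1. The other 10 member probe sets were flat, each at a value of its own between 6.05 and 9.12. No member lay near the limit: the smallest span of a measured probe set was 0.39 and the largest of a flat probe set was 9.7e-08, both for Tpm2.

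RNA of 8 cultures was hybridised to 8 Affymetrix arrays, in 4 groups of 2 biological replicates. Double-KO cells were Jmjd1adelta/delta; Jmjd1bdelta/delta, Jmjd1a-KO cells were Jmjd1adelta/delta; Jmjd1b+/+, Jmjd1b-KO cells were Jmjd1a+/+; Jmjd1bdelta/delta, and WT cells were Jmjd1a+/+; Jmjd1b+/+. All were grown with leukemia inhibitory factor, which keeps such cells undifferentiated, and the protocol given for all 8 samples names OHT at 800 nM, the drug that switches on the MerCreMer recombinase. For double-KO cells, conditional Jmjd1b alleles and a plasmid for MerCreMer were put into a line deficient for Jmjd1a, and Jmjd1a-KO cells are labelled as a Jmjd1a-deficient line. The labels describe WT and Jmjd1b-KO cells as taken from mice, whereas in the design text Jmjd1b-deficient lines were made in culture, from Jmjd1bΔ/+ cells, by adenoviral Cre. Which line gave which replicate is not stated in the sources used here, and in the comparisons with WT or Jmjd1b-KO the deletions cannot be told apart from differences between lines. In double-KO against Jmjd1a-KO, the conditional alleles, the plasmid and the choice of line cannot be told apart from the Jmjd1b deletion either.

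Jmjd1a and Jmjd1b, now named Kdm3a and Kdm3b, remove methyl groups from lysine 9 of histone H3, a mark of silent chromatin. In smooth muscle, contraction runs through filaments of alpha-actin and myosin, and tropomyosin, caldesmon and calponin lie along the actin filament and regulate it. Many of these genes are switched on by serum response factor (SRF), which binds a DNA element called the CArG box and is helped by myocardin in muscle and by the related factors Mrtfa and Mrtfb in other cells. Several of them are also expressed outside muscle, in fibroblasts and other cells with stress fibres.

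The CArG box was looked for in the 250 bases upstream of each start site, because it is the element that these genes are known for. RefSeq promoters of build GRCm38.p6 were found for 9 of the 10 genes, 10 promoters in all, and Tagln was not searched. An exact CArG box stood in 3 of the 10 promoters (30%), those of Myl9, Actc1 and Cnn2, against 1.47% of all 32851 promoters. With 1 of the 6 core bases allowed to be C or G, 4 of 10 (40%) held a match, against 8.59% of all promoters, and Acta2 joined the 3. The motif reads the same on both strands, and it was the only motif searched. Stretches around the matches of these 4 genes are printed 5′ to 3′ on the strand of the gene, with each match in capitals, since Acta2, Actc1 and Cnn2 shared the most common pattern below and Myl9 did not.
Acta2, chr19:34255383-34255472, minus strand: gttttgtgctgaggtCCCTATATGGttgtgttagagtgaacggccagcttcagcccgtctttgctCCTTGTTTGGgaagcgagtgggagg
Actc1, chr2:114052898-114053065, minus strand: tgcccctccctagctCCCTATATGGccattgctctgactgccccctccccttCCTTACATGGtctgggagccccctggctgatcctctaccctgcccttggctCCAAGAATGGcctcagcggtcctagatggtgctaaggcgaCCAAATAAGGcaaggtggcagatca
Myl9, chr2:156775288-156775389, plus strand: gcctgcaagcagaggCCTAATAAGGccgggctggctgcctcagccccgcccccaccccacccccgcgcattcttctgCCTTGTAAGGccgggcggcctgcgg
Cnn2, chr10:79988529-79988568, plus strand: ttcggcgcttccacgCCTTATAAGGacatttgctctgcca
The first bases of the matches lay at -84 and -34 from the start site of Acta2, at -175, -138, -87 and -47 from that of Actc1, at -161 and -99 from that of Myl9 and at -56 from that of Cnn2. The exact boxes are those at -47 in Actc1, -161 in Myl9 and -56 in Cnn2. The windows of Cald1, Cnn1, Tpm1, Tpm2 and Anxa1 held no such letters.

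The transcripts of the deleted genes followed the labels. Kdm3a had 4.60 and 4.77 in double-KO cells and 5.08 and 4.87 in Jmjd1a-KO cells, against 12.80 and 12.83 in Jmjd1b-KO cells and 12.83 and 12.73 in WT cells. Kdm3b had 7.06 and 7.66 in double-KO cells, 9.95 and 9.81 in Jmjd1a-KO cells, 7.07 and 7.10 in Jmjd1b-KO cells and 9.91 and 9.96 in WT cells. Replicates lay farther apart in 2 of the groups. Over the measured probe sets, replicate 1 minus replicate 2 had an SD of 0.30 in double-KO and 0.35 in Jmjd1a-KO cells, against 0.12 in Jmjd1b-KO and 0.16 in WT cells. Double-KO replicate 1 stood apart in stem cell genes picked after their values were seen, with 7.58 for Fgf4 and 7.68 for Esrrb, against 10.37 and 9.58 in replicate 2. This array was also the higher of the pair in 10 of the 13 member probe sets, by at most 0.91. The same share over all measured probe sets is not given here, so nothing is read from this count.

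The label of smooth muscle could hardly be checked against defining genes. Of 15 genes listed as defining smooth muscle, 14 were on the array, and 13 of these were flat, at 6.04 to 7.72, with the myosin Myh11, smoothelin (Smtn), Lmod1, Des, Actg2 and myocardin (Myocd) among them. A flat value gives no level for a single group, so these genes say nothing of the state of the cells. Only Itga8 was measured, and its summed linear level was 119 to 124 in double-KO, 117 to 118 in Jmjd1a-KO cells, 99.4 to 104 in Jmjd1b-KO and 101 to 118 in WT cells. All 18 listed stem cell markers were measured, Pou5f1 at a mean of 12.32 in double-KO, 12.44 in Jmjd1a-KO cells, 12.63 in Jmjd1b-KO and 12.45 in WT cells. In bulk cultures, fewer cells of a type and less RNA per cell cannot be told apart.

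Most of the 10 genes shared a pattern over the 4 genotypes. Acta2, Tagln, Actc1, Cald1, Cnn2 and Anxa1 were lowest in cells that lacked only Jmjd1b and had a higher mean in cells that lacked both demethylases than in either single KO. Myl9 was low in all 3 KO groups. Cnn1 ran the other way, highest in Jmjd1b-KO and lowest in double-KO cells, and the tropomyosins Tpm1 and Tpm2 moved little. Values are log2 levels, and each difference is given on the log2 scale with the SE from a limma fit to all 8 arrays, 2 in each group. A difference is called higher or lower where the adjusted p is under 0.05. For Acta2, Tagln, Actc1 and Myl9, other comparisons that use the WT or KO arrays of their listing are not independent of it. Adjusted p-values of those comparisons are given as a description.

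**Figure D1:**
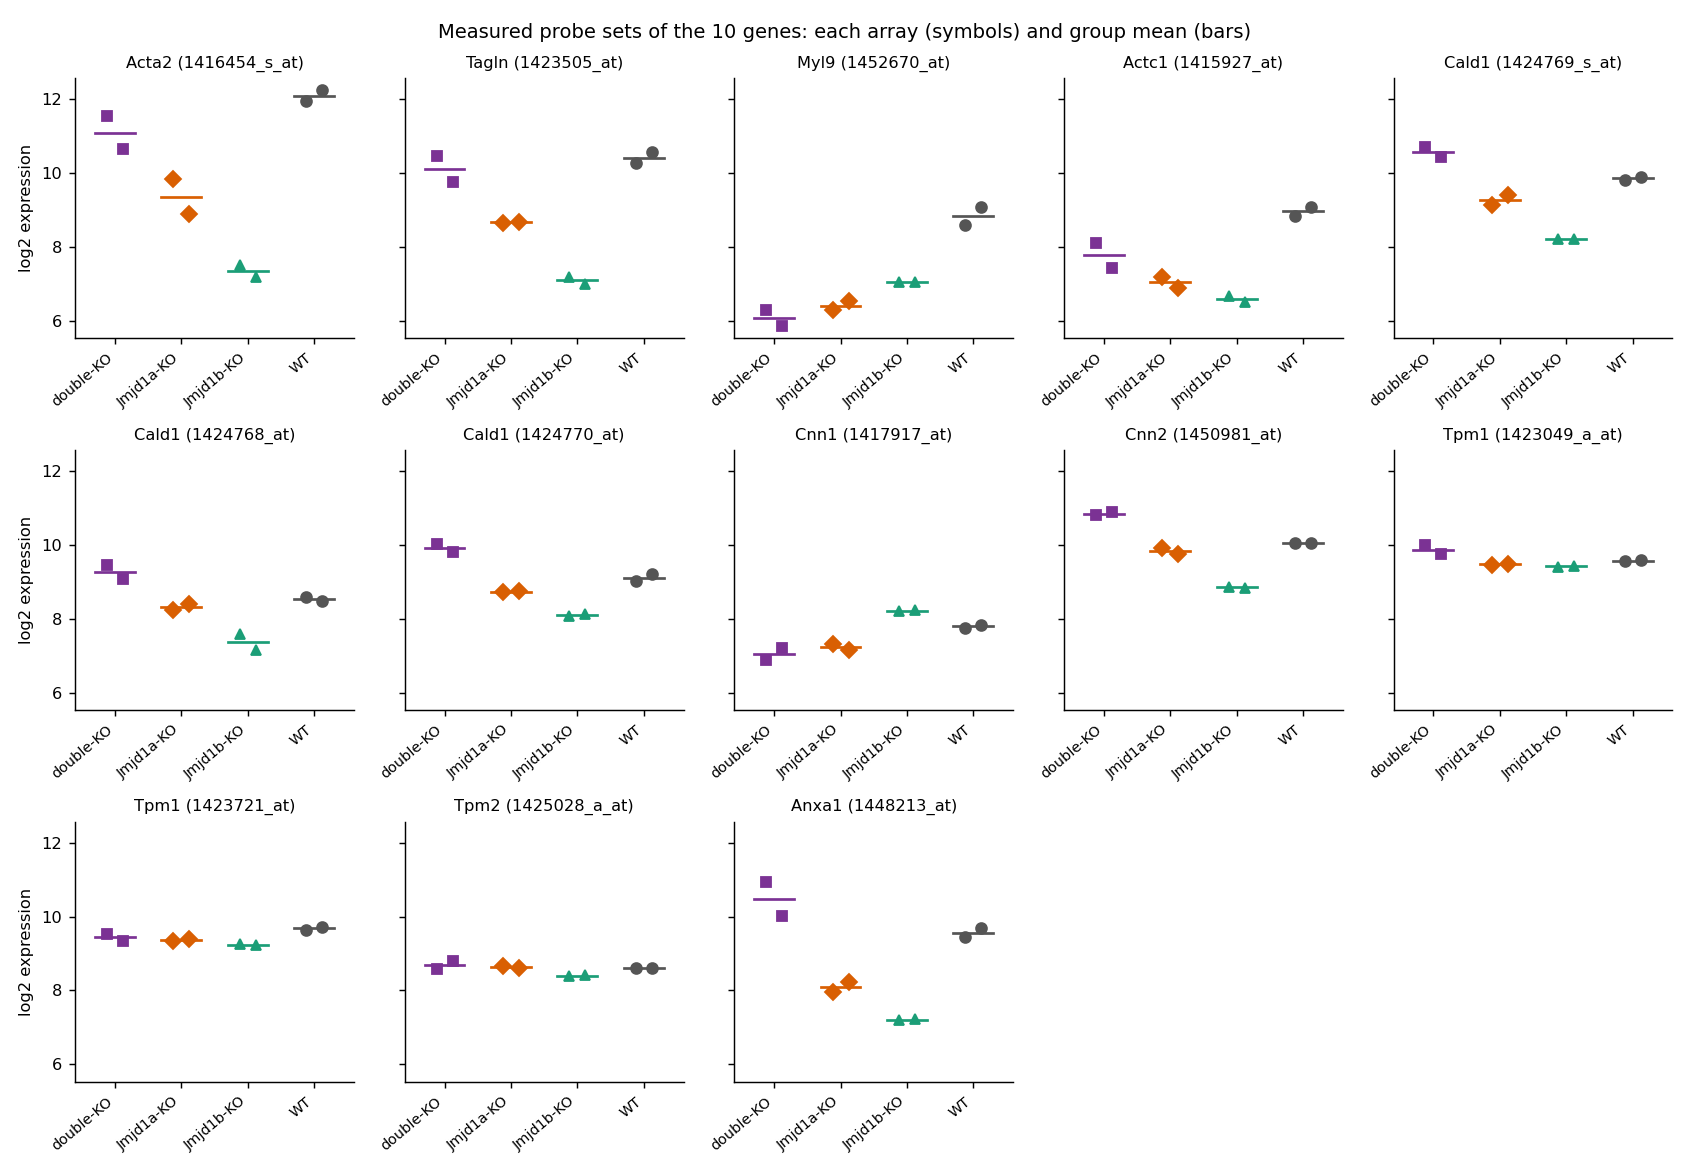
Log2 expression (y axis) of the 13 measured probe sets in the 4 genotypes (x axis), with 1 symbol per array and a bar at the mean of each group of 2. In Acta2 and Tagln the Jmjd1b-KO arrays lie between 6.99 and 7.50, below all other arrays, and in Cnn1 they lie highest, at 8.21 and 8.22.

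Acta2 encodes smooth muscle alpha-actin, the main actin of vascular smooth muscle and of myofibroblasts. It had 11.54 and 10.65 in double-KO cells, 9.84 and 8.89 in Jmjd1a-KO cells, 7.50 and 7.19 in Jmjd1b-KO cells and 11.95 and 12.24 in WT cells. The groups did not overlap, with WT highest, double-KO next and Jmjd1b-KO lowest. The Jmjd1b-KO values lay not far above the medians of those arrays (6.80), and signal over background was not analysed here. The difference from WT was -4.75 ± 0.40 in Jmjd1b-KO cells, a 27.0-fold lower level, and -2.74 ± 0.40 in Jmjd1a-KO cells (adjusted p = 0.0131, and 0.0677 or 0.0877 without WT replicate 1 or 2). Double-KO cells were higher than Jmjd1a-KO cells by 1.73 ± 0.40 (adjusted p = 0.0263). This call was lost without double-KO replicate 1 (1.29, adjusted p = 0.102) and without Jmjd1a-KO replicate 2 (1.26, adjusted p = 0.0643), and leaving out any Jmjd1b-KO or WT array gave an adjusted p of 0.0513 or 0.0538. Against WT, double-KO cells had -1.0 ± 0.40 (adjusted p = 0.0884), with a 95% interval from -1.99 to -0.01. The suffix of this probe set, 1416454_s_at, marks probes that may match several transcripts, so related actins may add to its signal, and both other Acta2 probe sets were flat, at 6.05 and 6.20.

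Actc1 encodes cardiac alpha-actin, the main actin of heart muscle, which is also made in smooth muscle during development. Its values were 8.11 and 7.44 in double-KO cells, 7.19 and 6.90 in Jmjd1a-KO cells, 6.67 and 6.51 in Jmjd1b-KO cells and 8.85 and 9.09 in WT cells. All 6 KO arrays were below the 2 WT arrays, and the order of the groups was that of Acta2, without overlap. The difference from WT was -2.38 ± 0.23 in Jmjd1b-KO cells, -1.93 ± 0.23 in Jmjd1a-KO cells (adjusted p = 0.00854) and -1.20 ± 0.23 in double-KO cells (adjusted p = 0.00914). The last 2 missed the threshold without WT replicate 2, at an adjusted p of 0.0647 and 0.0561. Double-KO minus Jmjd1a-KO was 0.73 ± 0.23 (adjusted p = 0.0642), with an interval from 0.16 to 1.30, and Jmjd1a-KO minus Jmjd1b-KO was 0.45 ± 0.23 (adjusted p = 0.200). Neither of these pairs of neighbours in the order passed the test. The Jmjd1b-KO values lay close to the lower quartile of the arrays (6.34), and signal over background was not analysed here.

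Tagln encodes transgelin, an actin-binding protein of the calponin family that is an early marker of smooth muscle. It stood at 10.46 and 9.75 in double-KO cells, 8.65 and 8.68 in Jmjd1a-KO cells, 7.20 and 6.99 in Jmjd1b-KO cells and 10.26 and 10.57 in WT cells. Double-KO and WT arrays overlapped, whereas both single KO groups lay below them and apart from each other. The Jmjd1b-KO values lay not far above the medians of those arrays (6.80), so the size of that difference is uncertain. Tagln was 10.0-fold lower in Jmjd1b-KO cells than in WT cells (-3.32 ± 0.24), and its difference in Jmjd1a-KO cells was -1.75 ± 0.24 (adjusted p = 0.0111). In double-KO cells it was higher than in Jmjd1a-KO cells by 1.44 ± 0.24 (adjusted p = 0.010), and this call held without each of the 8 arrays in turn. Double-KO minus WT was -0.31 ± 0.24 (adjusted p = 0.333), with an interval from -0.89 to 0.28. The fall in Jmjd1a-KO cells missed the threshold without WT replicate 1 (adjusted p = 0.0546) or 2 (adjusted p = 0.0763). Tagln2 and Cnn3, relatives with a broad tissue range, had group means of 9.38 to 9.44 and of 11.99 to 12.04.

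Myl9 encodes the regulatory light chain of smooth muscle and nonmuscle myosin, whose phosphorylation starts contraction in smooth muscle. It was the exception among the genes with large differences. It had 6.29 and 5.85 in double-KO cells, 6.30 and 6.53 in Jmjd1a-KO cells, 7.05 and 7.04 in Jmjd1b-KO cells and 8.60 and 9.07 in WT cells. All KO arrays were below the WT arrays, and here Jmjd1b-KO, not double-KO, was nearest to WT. The difference from WT was -2.76 ± 0.20 in double-KO cells (adjusted p = 0.000461), -2.42 ± 0.20 in Jmjd1a-KO cells and -1.79 ± 0.20 in Jmjd1b-KO cells (adjusted p = 0.00674). Double-KO minus Jmjd1a-KO was -0.34 ± 0.20 (adjusted p = 0.260), with an interval from -0.85 to 0.16. The levels in double-KO and Jmjd1a-KO cells lay close to the lower quartile of the arrays (6.34), so the size of those differences is uncertain. The call in Jmjd1b-KO cells was lost without either Jmjd1b-KO array (adjusted p = 0.0537 and 0.0586). The Myl9 promoter holds an exact CArG box, as those of Actc1 and Cnn2 do.

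Cald1 encodes caldesmon, which binds actin and tropomyosin and restrains the myosin motor. Its probe set 1424769_s_at had 10.70 and 10.42 in double-KO cells, 9.13 and 9.41 in Jmjd1a-KO cells, 8.22 and 8.22 in Jmjd1b-KO cells and 9.81 and 9.90 in WT cells. Double-KO was highest and Jmjd1b-KO lowest, with no overlap of groups. The 2 other measured probe sets had the same order: 1424768_at had 9.46 and 9.09 in double-KO, 8.24 and 8.39 in Jmjd1a-KO cells, 7.57 and 7.16 in Jmjd1b-KO and 8.60 and 8.47 in WT cells. In 1424770_at the values were 10.02 and 9.80 in double-KO, 8.72 and 8.74 in Jmjd1a-KO cells, 8.08 and 8.14 in Jmjd1b-KO and 9.02 and 9.20 in WT cells. All 3 probe sets were thus above WT in both double-KO arrays and below it in both Jmjd1b-KO arrays. Double-KO cells were higher than WT cells by 0.70 ± 0.13, 0.74 ± 0.18 and 0.80 ± 0.10 (adjusted p = 0.00727, 0.0189 and 0.00183, in the order of first mention), and the differences of Jmjd1b-KO from WT cells were -1.64 ± 0.13, -1.17 ± 0.18 and -1.0 ± 0.10 (adjusted p = 0.00353, 0.0122 and 0.00463). Against Jmjd1a-KO, the double-KO levels were higher by 1.29 ± 0.13, 0.96 ± 0.18 and 1.18 ± 0.10 (adjusted p = 0.00258, 0.0138 and 0.00142). Of these, the calls of 1424768_at were lost without double-KO replicate 1, at 0.55 against WT (adjusted p = 0.0779) and 0.78 against Jmjd1a-KO (adjusted p = 0.0577), and without either WT array against WT (adjusted p = 0.0638 and 0.0950). In Jmjd1b-KO against WT, 1424770_at missed the threshold without Jmjd1b-KO replicate 2 (adjusted p = 0.0510), and 1424768_at without that array or either WT array (adjusted p = 0.0564 to 0.0840). The difference of Jmjd1a-KO from WT was smaller, at -0.59 ± 0.13, -0.22 ± 0.18 and -0.38 ± 0.10 (adjusted p = 0.0323, 0.409 and 0.0465), and neither call held without Jmjd1a-KO replicate 1, either Jmjd1b-KO array or either WT array (adjusted p = 0.0735 to 0.214). That of 1424770_at was lost without Jmjd1a-KO replicate 2 as well (adjusted p = 0.0678).

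Cnn1 and Cnn2 encode calponins. Calponin 2, the product of Cnn2, is the form of nonmuscle cells as well as smooth muscle, and calponin 1, of Cnn1, is the form of differentiated smooth muscle. Cnn2 had 10.80 and 10.89 in double-KO cells, 9.92 and 9.76 in Jmjd1a-KO cells, 8.87 and 8.82 in Jmjd1b-KO cells and 10.04 and 10.06 in WT cells. The groups were separate, with double-KO highest and Jmjd1b-KO lowest. Cnn2 was higher in double-KO than in WT cells by 0.79 ± 0.07 (adjusted p = 0.000779) and higher than in Jmjd1a-KO cells by 1.00 ± 0.07 (adjusted p = 0.000942). It was lower in Jmjd1b-KO than in WT cells (-1.21 ± 0.07, adjusted p = 0.00219). These 3 calls held without each of the 8 arrays in turn and with the flat probe sets left in the fit. Jmjd1a-KO minus WT was -0.21 ± 0.07 (adjusted p = 0.0909).

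Cnn1 had 6.88 and 7.20 in double-KO cells, 7.33 and 7.16 in Jmjd1a-KO cells, 8.21 and 8.22 in Jmjd1b-KO cells and 7.76 and 7.82 in WT cells. Both Jmjd1b-KO arrays were above WT and both groups without Jmjd1a were below it, with double-KO and Jmjd1a-KO overlapping. The difference from WT was -0.75 ± 0.12 in double-KO cells (adjusted p = 0.00439), -0.55 ± 0.12 in Jmjd1a-KO cells (adjusted p = 0.0310) and 0.43 ± 0.12 in Jmjd1b-KO cells (adjusted p = 0.0489). The call in double-KO cells held without each array in turn. The call in Jmjd1a-KO cells was lost without any 1 of the Jmjd1a-KO, Jmjd1b-KO or WT arrays (adjusted p = 0.0570 to 0.155), and that in Jmjd1b-KO cells without any 1 of the Jmjd1b-KO or WT arrays (adjusted p = 0.138 to 0.201). Double-KO minus Jmjd1a-KO was -0.20 ± 0.12 (adjusted p = 0.253), with an interval from -0.49 to 0.09. Cnn1 and Cnn2 thus lay on opposite sides of WT in double-KO and in Jmjd1b-KO cells.

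Tpm1 and Tpm2 encode tropomyosins, which lie in the groove of the actin filament and are made in many spliced forms. For Tpm1, probe set 1423049_a_at had 10.00 and 9.74 in double-KO, 9.47 and 9.49 in Jmjd1a-KO cells, 9.41 and 9.43 in Jmjd1b-KO and 9.56 and 9.59 in WT cells. Probe set 1423721_at had 9.54 and 9.35 in double-KO, 9.33 and 9.41 in Jmjd1a-KO cells, 9.25 and 9.23 in Jmjd1b-KO and 9.64 and 9.73 in WT cells. The probe sets disagreed in double-KO cells, which were above WT in the first and below it in the second. The first was higher in double-KO than in WT cells by 0.30 ± 0.09 (adjusted p = 0.0361) and than in Jmjd1a-KO cells by 0.39 ± 0.09 (adjusted p = 0.0240). The call against Jmjd1a-KO held only without double-KO replicate 2, and that against WT was lost without double-KO replicate 1 or any Jmjd1b-KO or WT array. Without double-KO replicate 1 the difference from WT was 0.17 (adjusted p = 0.0889), and as a mean of both probe sets it was 0.03 (adjusted p = 0.779). Probe set 1423721_at had -0.24 ± 0.08 against WT in double-KO cells (adjusted p = 0.0548), -0.31 ± 0.08 in Jmjd1a-KO cells (adjusted p = 0.0467) and -0.44 ± 0.08 in Jmjd1b-KO cells (adjusted p = 0.0183). Neither of its calls held without either Jmjd1b-KO or WT array (adjusted p = 0.0840 to 0.216), and that in Jmjd1a-KO cells was also lost without Jmjd1a-KO replicate 1 (adjusted p = 0.148). Tpm2 had 8.58 and 8.79 in double-KO, 8.66 and 8.61 in Jmjd1a-KO cells, 8.40 and 8.41 in Jmjd1b-KO and 8.61 and 8.62 in WT cells. Jmjd1b-KO was lowest, and the other 3 groups overlapped. Its difference was called only between double-KO and Jmjd1b-KO cells (0.28 ± 0.08, adjusted p = 0.0264), and there it was 0.18 without double-KO replicate 2 (adjusted p = 0.0784) and missed the threshold without any Jmjd1b-KO or WT array (adjusted p = 0.0520 to 0.114). Another Tpm2 probe set was flat at 9.12.

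Anxa1 encodes annexin A1, a calcium-dependent phospholipid-binding protein known for its anti-inflammatory action and not a part of the contractile apparatus. It had 10.93 and 10.02 in double-KO cells, 7.97 and 8.24 in Jmjd1a-KO cells, 7.21 and 7.22 in Jmjd1b-KO cells and 9.45 and 9.68 in WT cells. The 4 groups were separate, with double-KO highest and Jmjd1b-KO lowest. Against Jmjd1a-KO, double-KO cells were higher by 2.37 ± 0.29, or 5.15-fold (adjusted p = 0.00430), the largest difference of the 13 probe sets in that comparison, and this call held without each array in turn. Against WT they were higher by 0.91 ± 0.29 (adjusted p = 0.0458), but 0.45 without double-KO replicate 1 (adjusted p = 0.0756) and 1.36 without replicate 2 (adjusted p = 0.00439), and leaving out any of the 6 arrays of the other groups gave an adjusted p of 0.0541 to 0.181. Both single KO groups were lower than WT, with differences of -1.46 ± 0.29 in Jmjd1a-KO (adjusted p = 0.0255) and -2.35 ± 0.29 in Jmjd1b-KO cells (adjusted p = 0.00762). The first call was lost without Jmjd1a-KO replicate 1 or any Jmjd1b-KO or WT array (adjusted p = 0.0602 to 0.136), and the second without either Jmjd1b-KO array or WT replicate 1 (adjusted p = 0.0568 to 0.0613).

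**Figure D2:**
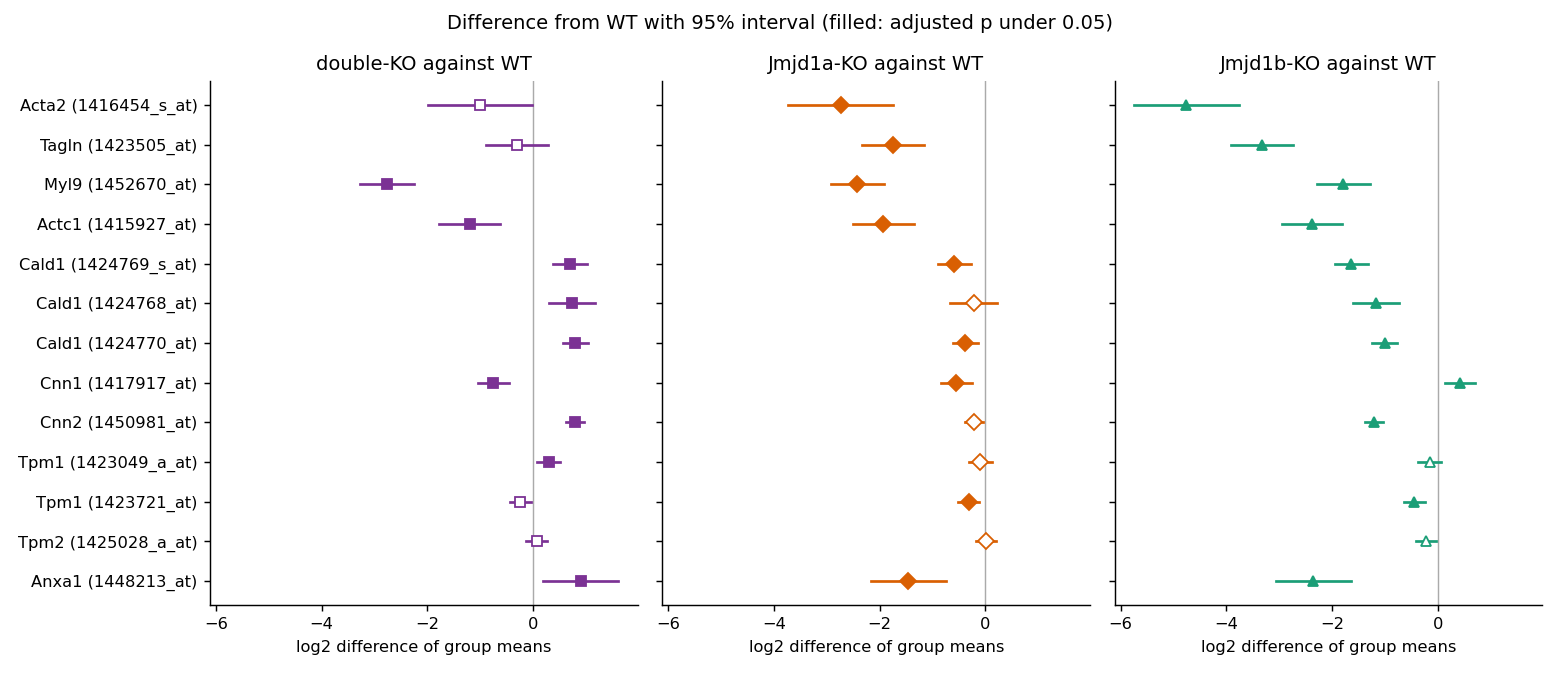
Log2 difference from WT (x axis) of each measured probe set (y axis) in double-KO, Jmjd1a-KO and Jmjd1b-KO cells, with 95% intervals and filled symbols for an adjusted p under 0.05. Acta2 lies at -1.0 in double-KO and at -4.75 in Jmjd1b-KO cells, and the 3 Cald1 probe sets and Cnn2 lie above 0 in double-KO cells, at 0.70 to 0.80.

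Loss of Jmjd1b in cells without Jmjd1a went with higher levels of most of these probe sets. In cells without Jmjd1a, read from double-KO against Jmjd1a-KO, 8 of the 13 probe sets were higher and 0 were lower (9 and 0 at an unadjusted p under 0.05), where 17% of all measured probe sets were higher and 11.9% lower. The median difference was 0.96, against 0.02 over all measured probe sets. The differences by which Acta2, Tagln and Actc1 were listed did not use these arrays, and that of Myl9 used those of Jmjd1a-KO. All 10 genes were chosen with results of the 8 arrays known, so these counts are a description. Without Acta2, Tagln, Actc1 and Myl9, 6 of 9 probe sets were higher and 0 lower (6 and 0 at an unadjusted p under 0.05). In cells with Jmjd1a, read from Jmjd1b-KO against WT, 10 probe sets were lower and 1 was higher, where 11.5% of all measured probe sets were lower and 12.3% higher. The median difference was -1.21, against 0.00. That comparison was used to list Acta2, Tagln and Actc1, so nothing is read from this count.

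The difference between these effects, double-KO minus Jmjd1a-KO less Jmjd1b-KO minus WT, was called positive in 11 probe sets and negative in 1, Cnn1, where 13.9% of measured probe sets were positive and 11.1% negative. Acta2, Tagln, Actc1 and Myl9 are among the 11, and their listing partly fixes this count. Of the 9 probe sets of the other genes, 7 were positive and 1 negative, and these genes too were chosen with results of these arrays known. The difference was 2.21 ± 0.10 for Cnn2 (adjusted p = 0.00118), 2.93 ± 0.18 for the first Cald1 probe set (adjusted p = 0.00205) and 4.72 ± 0.41 for Anxa1 (adjusted p = 0.00306). For Acta2, Tagln and Actc1 it was 6.49 ± 0.57, 4.76 ± 0.34 and 3.11 ± 0.33, and for Myl9 1.44 ± 0.29, values that hold the differences by which these genes were listed. Both differences of Myl9 were negative, and the one in cells without Jmjd1a was the smaller in size. Myl9 levels in double-KO and Jmjd1a-KO cells lay close to the lower quartile of the arrays, which limits the smaller difference. The calls of Cnn1 and both Tpm1 probe sets did not hold without each array in turn, and those of Cald1, Cnn2 and Anxa1 did. Because the sources describe double-KO and Jmjd1b-KO cells as derived in different ways, an interaction of the losses cannot be told apart from a difference between lines.

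**Figure D3:**
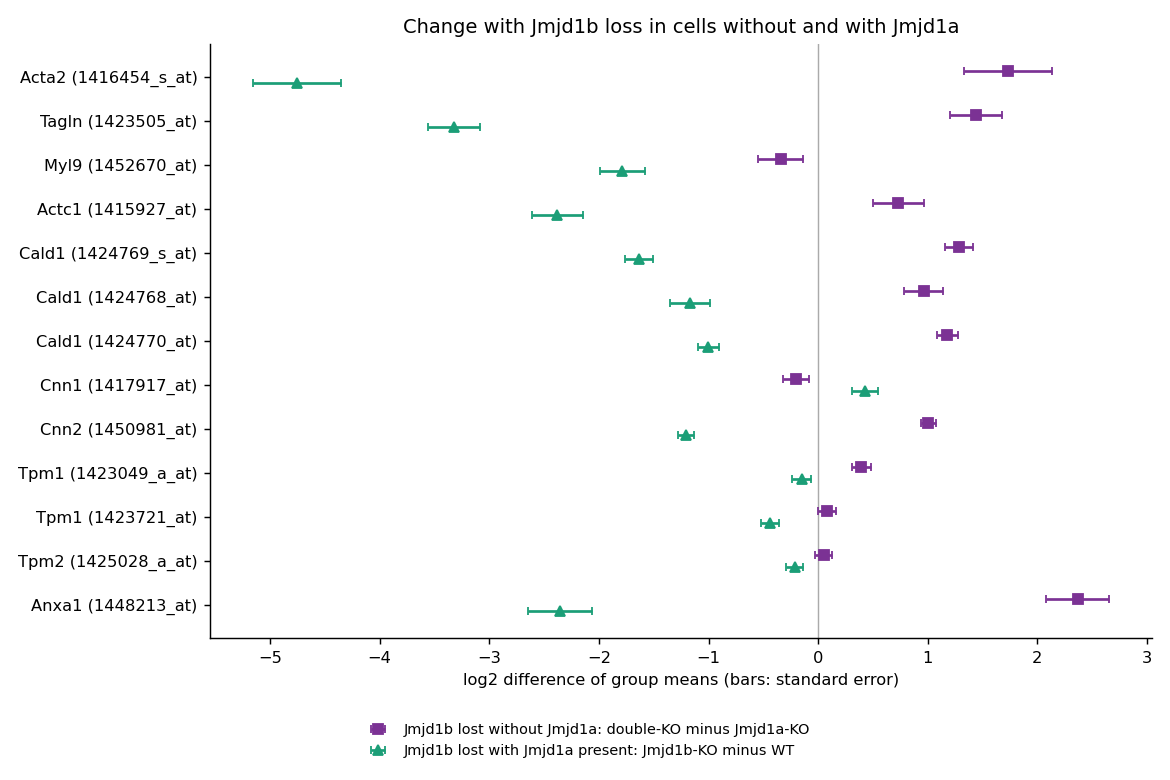
Log2 difference with loss of Jmjd1b (x axis, bars are SE) for each measured probe set (y axis), as double-KO minus Jmjd1a-KO (squares) and Jmjd1b-KO minus WT (triangles). Acta2, Tagln, Actc1, Cald1, Cnn2 and Anxa1 lie right of 0 for the squares, at 0.73 to 2.37, and left of 0 for the triangles, and Myl9 lies left of 0 in both.

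The other comparisons use the WT, Jmjd1a-KO or Jmjd1b-KO arrays on which Acta2, Tagln, Actc1 and Myl9 were listed, so nothing is read from their counts over all members, and counts without these 4 genes are given beside them. Of the 13 probe sets, 6 were higher and 3 lower in double-KO than in WT cells, where 26.9% of all measured probe sets were higher and 19.6% lower. The lower ones were Myl9, Actc1 and Cnn1, and of the 9 probe sets without the 4 genes 6 were higher and 1 lower. In Jmjd1a-KO against WT, 0 were higher and 9 lower (0 and 10 at an unadjusted p under 0.05), where 9.98% of measured probe sets were higher and 7.84% lower, with a median of -0.55 against 0.00. Without the 4 genes 0 were higher and 5 lower (0 and 6 unadjusted), with a median of -0.31. Double-KO cells had 10 probe sets higher than Jmjd1b-KO cells and 2 lower, Myl9 and Cnn1, where 28.3% were higher and 21.8% lower, and without the 4 genes 7 and 1. Jmjd1a-KO cells had 6 higher than Jmjd1b-KO cells and 1 lower, Cnn1, where 15.1% were higher and 12.7% lower, and without the 4 genes 4 and 1. These comparisons share arrays, so their counts are not independent of each other. The genes left in the counts without the 4 were also chosen with results of these arrays known.

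Fewer calls were made with the flat probe sets kept in the fit. With all 45101 probe sets in it, 3 member probe sets were called in double-KO against WT (Myl9, Cnn2 and 1 of Cald1), where 7.16% of all probe sets were, and 3 in double-KO against Jmjd1a-KO (Cnn2 and 2 of Cald1), where 2.86% were. In Jmjd1a-KO against WT (1.72% of all) no member was called beyond Myl9, which was listed for that difference. In Jmjd1b-KO against WT (1.82%) 2 Cald1 probe sets and that of Cnn2 were called, beside Acta2, Tagln and Actc1, which were listed for it. Double-KO against Jmjd1b-KO had 8 calls (8.47%), with Acta2 and Tagln among them, Jmjd1a-KO against Jmjd1b-KO had 2 (3.02%), and the interaction had 7 (2.76%), with Acta2, Tagln and Actc1 among them. Without each of the 8 arrays in turn, and with flat probe sets left out, 5 of 8 calls held in double-KO against Jmjd1a-KO (Tagln, 2 of Cald1, Cnn2 and Anxa1), 5 of 9 in double-KO against WT (Myl9, 2 of Cald1, Cnn1 and Cnn2) and 3 of 7 in Jmjd1a-KO against Jmjd1b-KO (1 of Cald1, Cnn1 and Cnn2). In double-KO against Jmjd1b-KO 8 of 12 held, with Acta2 and Tagln among them. In Jmjd1b-KO against WT, 1 Cald1 probe set and that of Cnn2 held among the genes not listed for that difference, and in Jmjd1a-KO against WT none did.

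Profiles over the 8 arrays were compared after each was centred on its own mean, by the root mean square of the differences. Cnn2 and the Cald1 probe set 1424770_at were 0.17 apart, Tagln and Anxa1 0.50, and Acta2 and Tagln 0.58, whereas Acta2 and Myl9 were 1.72 apart. Among 2772 probe sets of other genes with a span of at least 1, Col3a1, a fibrillar collagen, was nearest to Acta2 (0.82), then Pmp22 (0.93), Ptn (0.93), Nrep (1.00), Car3 (1.02) and Cdh2, N-cadherin (1.05). Ptn, a secreted growth factor, had group means of 8.98 in double-KO, 8.20 in Jmjd1a-KO cells, 5.14 in Jmjd1b-KO and 8.80 in WT cells. Nearest to Myl9 were Serpinh1, a collagen chaperone (0.37), the cyclin Ccnd2 (0.39), Pim2 and Emp1 (both 0.45), Fam111a (0.45) and Mras (0.48). Serpinh1 had means of 8.72 in double-KO, 9.16 in Jmjd1a-KO cells, 9.21 in Jmjd1b-KO and 10.87 in WT cells. These likenesses are descriptions over 8 arrays of 4 groups.

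Srf, the gene of SRF itself, had group means of 8.06 in double-KO, 8.05 in Jmjd1a-KO cells, 8.13 in Jmjd1b-KO and 8.0 in WT cells, and its difference from WT was 0.06 ± 0.08 in double-KO (adjusted p = 0.553) and 0.13 ± 0.08 in Jmjd1b-KO cells (adjusted p = 0.269). Of 16 symbols listed for SRF and its coactivators, 13 were on the array and 5 were measured, with Mrtfa, Mrtfb and Myocd flat. The others, Mkl1, Mkl2 and Stars, are older names of Mrtfa, Mrtfb and Abra, so no listed gene was absent. Fhl1, a LIM-domain protein of muscle, had 9.97 and 9.63 in double-KO, 9.49 and 9.17 in Jmjd1a-KO cells, 7.95 and 7.62 in Jmjd1b-KO and 8.62 and 8.53 in WT cells. It was higher than in WT by 1.23 ± 0.17 in double-KO (adjusted p = 0.00314) and lower in Jmjd1b-KO cells (-0.79 ± 0.17, adjusted p = 0.0287). Elk4, an SRF partner, was lower in both (-0.35 and -0.42). Fhl1 and Elk4 were thus the 1 gene higher and the 1 lower in double-KO cells, and the 2 lower in Jmjd1b-KO cells, where 0 were higher (0 also at an unadjusted p under 0.05). Over all measured genes, 28.1% were higher and 19.8% lower in double-KO cells, and 13.6% and 10.2% in Jmjd1b-KO cells. With 5 measured genes, nothing is read from these counts.

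Of 40 symbols listed for other cytoskeletal genes known as SRF targets, 38 were on the array and 29 were measured. The others, Cyr61 and Ctgf, are older names of Ccn1 and Ccn2. Fhl1 stands in this list as well, and Ccn2 also in that for TGF-beta signalling. Counted by gene, 11 were higher and 1 lower in double-KO than in WT cells, where 28.1% of all 7181 measured genes were higher and 19.8% lower, and 10 were higher and 2 lower than in Jmjd1a-KO cells, where 17.9% were higher and 11.8% lower. In Jmjd1b-KO against WT, 0 were higher and 6 lower (1 and 9 at an unadjusted p under 0.05), where 13.6% were higher and 10.2% lower. Their median difference in Jmjd1b-KO cells was -0.07, against 0.02 over all measured genes. The interaction was positive in 11 and negative in 0 (13 and 1 at an unadjusted p under 0.05), where 13.7% of genes were positive and 11.9% negative. Ccn2, a matrix-associated signalling protein, was higher in double-KO than in WT cells by 2.51 ± 0.23 (adjusted p = 0.000852), and Tes, a focal adhesion protein, by 1.21 ± 0.16. Palld, palladin, was lower there (-1.41 ± 0.17). Tpm4, a nonmuscle tropomyosin, was lower in Jmjd1b-KO than in WT cells (-1.29 ± 0.17, adjusted p = 0.00870) and had 0.10 ± 0.17 in double-KO cells. Thbs1, thrombospondin, and the crosslinker Actn1 were lower in Jmjd1b-KO cells (-1.38 ± 0.27 and -0.29 ± 0.06).

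The summed level of fibroblast markers, in which Vim, Fn1 and Sparc weigh most, was below WT in all 3 KO groups. Of 24 listed genes 23 were on the array and 12 were measured. Their summed linear level was 9612 to 10845 in double-KO, 10838 to 11160 in Jmjd1a-KO cells, 7964 to 8365 in Jmjd1b-KO and 14341 to 14610 in WT cells, while Dcn, Lum, Pdgfra and Fap were flat. In double-KO cells 0 were higher and 7 lower than in WT (1 and 7 at an unadjusted p under 0.05), where 28.1% of all measured genes were higher and 19.8% lower. In Jmjd1a-KO cells the counts were 0 and 7 (0 and 7 unadjusted), where 10% of all measured genes were higher and 7.83% lower. In Jmjd1b-KO cells they were 1 and 6, where 13.6% were higher and 10.2% lower. Col1a2, a chain of type I collagen, had 7.73 and 7.53 in double-KO, 9.06 and 8.71 in Jmjd1a-KO cells, 7.01 and 6.70 in Jmjd1b-KO and 10.52 and 10.67 in WT cells. It was lower than in WT in double-KO (-2.96 ± 0.16) and Jmjd1b-KO cells (-3.74 ± 0.16), and lower in double-KO than in Jmjd1a-KO cells (-1.26 ± 0.16, adjusted p = 0.00490), where Acta2, Tagln, Cald1, Cnn2 and Anxa1 were higher. Col1a1 (-2.40 and -2.01) and Col5a2 (-1.77 and -2.61) were likewise lower than in WT in double-KO and Jmjd1b-KO cells, and Pdgfrb was lower in double-KO cells (-1.09). Col3a1, the gene nearest to Acta2, had 8.50 and 8.25 in double-KO, 7.65 and 7.27 in Jmjd1a-KO cells, 5.49 and 5.14 in Jmjd1b-KO and 8.13 and 8.26 in WT cells. It was higher in double-KO than in Jmjd1a-KO cells by 0.91 ± 0.18 (adjusted p = 0.0157) and had 0.17 ± 0.18 against WT (adjusted p = 0.458). The part of other cell types in the levels of the 10 genes was not tested.

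Of 26 symbols listed for TGF-beta signalling, which induces contractile genes in many cells, 16 were measured. Ctgf in this list is an older name of Ccn2. In double-KO against WT, 6 were higher and 1 lower (7 and 2 at an unadjusted p under 0.05), where 28.1% of all measured genes were higher and 19.8% lower. In Jmjd1b-KO against WT, 1 was higher and 4 lower (5 and 5 unadjusted), where 13.6% were higher and 10.2% lower. Tgfbi, a matrix protein induced by the pathway, was lower than in WT in double-KO (-2.73 ± 0.20) and Jmjd1b-KO cells (-3.71 ± 0.20), and had -0.16 ± 0.20 in double-KO against Jmjd1a-KO cells (adjusted p = 0.587). Ltbp1, which binds latent TGF-beta, and the repressor Tgif1 were higher in double-KO cells (1.06 and 0.93). In Jmjd1b-KO cells the ligand Tgfb2 and the receptor Tgfbr1 were lower (-0.57 and -0.55) and the inhibitor Smad6 was higher (0.58). Relatives of Anxa1 were measured too: of 8 annexins and S100 partners, 6 were higher and 1 lower in double-KO than in WT cells (28.1% and 19.8% of all measured genes), and 4 were higher and 1 lower in Jmjd1b-KO than in WT cells (13.6% and 10.2%). Anxa2 was higher by 3.01 ± 0.52 in double-KO and 2.22 ± 0.52 in Jmjd1b-KO cells, with Jmjd1a-KO arrays far apart at 10.97 and 9.21, while Anxa3 was lower in Jmjd1b-KO cells (-1.54 ± 0.27), as Anxa1 was. Anxa5, S100a10 and Anxa4 were each higher by 1.46 in double-KO cells.

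**Figure D4:**
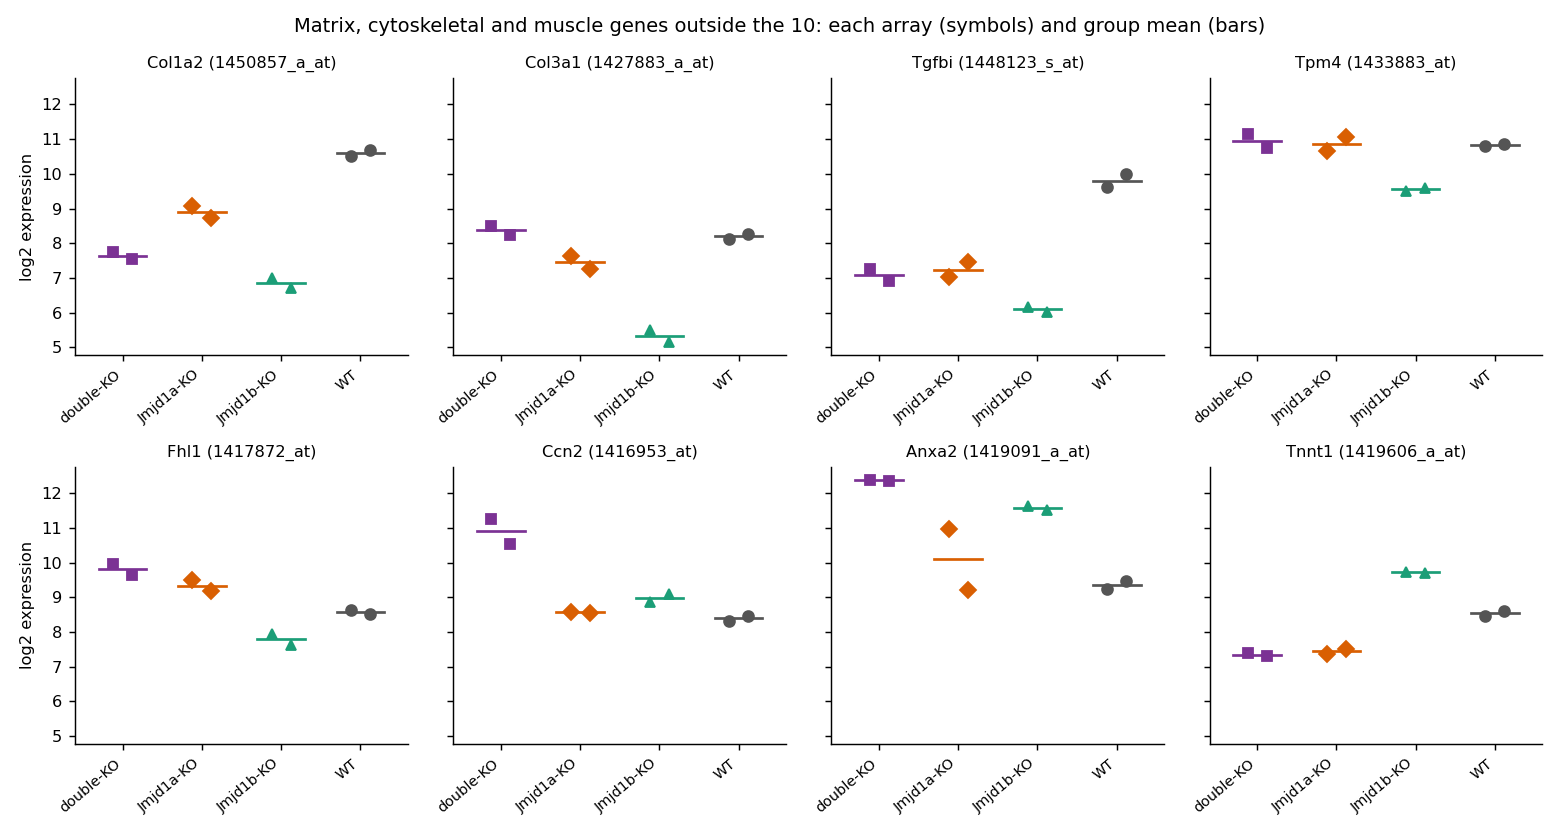
Log2 expression (y axis) of 8 genes outside the 10 in the 4 genotypes (x axis), with 1 symbol per array and a bar at the group mean. Col3a1 and Tpm4 are lowest in Jmjd1b-KO and near WT in double-KO cells, Col1a2 and Tgfbi are below WT in all 3 KO groups, and Tnnt1 is highest in Jmjd1b-KO cells at 9.73 and 9.70.

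Tnnt1, Myh6 and Tnnc2, genes of cardiac and skeletal muscle, were lower in double-KO and higher in Jmjd1b-KO than in WT cells, as Cnn1 was. They were lower than in WT in Jmjd1a-KO cells too (-1.10, -0.50 and -0.51). None of these genes was called in double-KO against Jmjd1a-KO (-0.09, 0.03 and 0.10). Of 23 listed genes of these muscles 8 were measured, and 0 were higher and 7 lower in double-KO than in WT cells (0 and 7 at an unadjusted p under 0.05), where 28.1% of all measured genes were higher and 19.8% lower. In Jmjd1b-KO cells 3 were higher and 0 lower (5 and 1 at an unadjusted p under 0.05), where 13.6% were higher and 10.2% lower. In Jmjd1a-KO cells 0 were higher and 3 lower (0 and 5 unadjusted), where 10% were higher and 7.83% lower. The summed linear level of the 8 genes was 728 to 941 in double-KO, 2309 to 3406 in Jmjd1a-KO cells, 2995 to 3055 in Jmjd1b-KO and 3289 to 3359 in WT cells. Mymx weighs most in these sums outside double-KO cells. Its group means were 6.45 in double-KO, 10.83 in Jmjd1a-KO cells, 10.02 in Jmjd1b-KO and 10.93 in WT cells. The order of the sums in Jmjd1b-KO and WT cells is therefore not that of most of the genes. Tnnt2, Myh7, Nkx2-5, Myod1 and Myog were flat. Tnnt1, slow skeletal troponin T, had 7.40 and 7.30 in double-KO, 7.35 and 7.52 in Jmjd1a-KO cells, 9.73 and 9.70 in Jmjd1b-KO and 8.46 and 8.61 in WT cells. It was lower in double-KO (-1.19 ± 0.09, adjusted p = 0.000450) and higher in Jmjd1b-KO cells (1.18 ± 0.09, adjusted p = 0.00304). Mymx, a micropeptide of myoblast fusion, Ttn, titin, and Myl4, an atrial light chain, were lower in double-KO cells (-4.48 ± 0.66, -2.42 ± 0.42 and -0.92 ± 0.21). Mymx differed between the double-KO arrays, at 5.38 and 7.52. Myh6 and Tnnc2 had -0.47 and -0.41 in double-KO and 0.35 and 0.33 in Jmjd1b-KO cells. Among the 18 stem cell markers, 6 were higher and 1 lower in double-KO than in WT cells (28.1% and 19.8% of all measured genes), and 1 was higher and 3 lower in Jmjd1b-KO cells (13.6% and 10.2%). Klf2, Nanog and Zfp42 were higher in double-KO cells (1.97, 1.34 and 1.33) and Lin28a was lower (-0.96). The median difference of all 18 markers there was -0.17, against 0.03 over all measured genes. Without a call, Esrrb (8.63 against 9.74), Fgf4 (8.98 against 9.91), Nr0b1 (9.39 against 10.11) and Utf1 (10.43 against 11.04) had lower means than in WT cells. In Jmjd1b-KO cells Klf2 was higher (1.08) and Tbx3, Tfcp2l1 and Sall4 were lower (-0.92, -0.91 and -0.44).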

How the data were processed

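RNA of 8 embryonic stem cell cultures was hybridised to 1 Affymetrix array each, after labelling from 200 ng of RNA per the labels' protocols. The authors deposited 1 table of 45101 probe sets by 8 arrays with log2 values, a unit read from the values themselves. R 2.7.2 appears in the submitters' processing notes. For background correction, normalization and summarization, the sources used here give no method. In 74.5% of the probe sets (33599) the deposited values were flat, spanning under 0.01 over the 8 arrays, and neither raw signals nor their height over background were analysed.

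Probe sets took gene names from the platform's annotation: 34958 had 1 symbol, 932 several and 9211 none. The functions lmFit and eBayes of limma 3.58.1 (R 4.3.3) were run on the 11502 probe sets that were not flat, with a mean for each of the 4 groups. Residual degrees of freedom were 4 and prior ones 1.89. Benjamini-Hochberg adjustment ran over all of these probe sets, and an adjusted p under 0.05 was called. The 7 contrasts were the 6 pairs of groups and the interaction. The 10 genes, the gene lists and the fit were chosen with earlier results of these data known, so the counts of members describe them and no test was made over the members as a set. Named are all member probe sets, Kdm3a and Kdm3b, the up to 4 genes of each list with the largest called difference in double-KO or Jmjd1b-KO against WT, and the 6 genes nearest in profile to Acta2 and to Myl9. Srf, Col3a1 and Tpm4 in further comparisons, Ptn and Serpinh1 levels, Tagln2, Cnn3, Fgf4, Esrrb, Pou5f1 and the flat genes given by name were picked after their values were seen. So were Vim, Fn1, Sparc, Thy1, Twist1, Nr0b1 and Utf1. List genes had 1 probe set each, the measured one with the highest mean. Summed linear levels add 2 to the power of the log2 values.

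Replicates with the same number were not treated as pairs: their deviations correlated between -0.04 and 0.24 in the 6 pairs of groups. The alternatives were the whole table, a filter on low means, quantile normalization, centring, 1 probe set or the mean of the probe sets of a gene, trend with robust eBayes, array weights, only the groups compared, a replicate block, stricter thresholds and leaving out each array. The fit was tested on simulated data. Promoters came from RefSeq (GRCm38.p6), searched in Python 3.11.15, and figures were drawn with matplotlib 3.10.9. The number of arrays limits the precision.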

Additional observations from a re-analysis of the deposited data

Results flagged for a closer look

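The effect of Jmjd1b loss differed between cells without and with Jmjd1a, by the limma interaction test, in 8 of the 9 probe sets of Cald1, Cnn1, Cnn2, Tpm1, Tpm2 and Anxa1. Over all measured probe sets, 13.9% were called positive and 11.1% negative in this test. For Acta2, Tagln, Actc1 and Myl9 the values are given without a test. The other genes were also chosen with results of these arrays known. The difference of the effects (double-KO minus Jmjd1a-KO, less Jmjd1b-KO minus WT) was 6.49 ± 0.57 for Acta2, 4.76 ± 0.34 for Tagln and 3.11 ± 0.33 for Actc1, genes that were listed for the second effect. It was 1.44 ± 0.29 for Myl9, which was listed for Jmjd1a-KO against WT. It was 4.72 ± 0.41 for Anxa1 (adjusted p = 0.00306), 2.21 ± 0.10 for Cnn2 (adjusted p = 0.00118) and -0.62 ± 0.17 for Cnn1 (adjusted p = 0.0427). The Cald1 probe sets had 2.93 (1424769_s_at), 2.18 (1424770_at) and 2.13 (1424768_at), with adjusted p = 0.00205, 0.00205 and 0.00557, and those of Tpm1 had 0.54 (1423049_a_at, adjusted p = 0.0289) and 0.52 (1423721_at, adjusted p = 0.0251). Tpm2 had 0.26 ± 0.11 (adjusted p = 0.127). With the flat probe sets kept in the fit, 1424769_s_at and 1424770_at of Cald1, Cnn2 and Anxa1 were still called. The calls of 1424768_at of Cald1, of Cnn1 and of both Tpm1 probe sets were lost there. Without each array in turn the sign and side of the threshold held for Cald1, Cnn2 and Anxa1, and not for Cnn1 and Tpm1. Without Jmjd1b-KO replicate 1, for example, the adjusted p was 0.123 for Cnn1 and 0.102 and 0.0847 for Tpm1. The losses cannot be told apart from differences between cell lines.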

How the results depend on the processing

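All 68 called differences of member probe sets kept their direction under the 20 alternatives, 0 of 1332 checks being reversed. Many of these settings cannot change a difference, such as the whole table, stricter thresholds or leaving out an array of another group. In such checks the direction was fixed in advance. The 68 also include the differences by which Acta2, Tagln, Actc1 and Myl9 were listed. The side of the threshold held in 1090 checks and was lost in 242. The count of called member probe sets was lower with the whole table in the fit, at 3 in double-KO against WT (from 9), 1 in Jmjd1a-KO against WT (from 9), 6 in Jmjd1b-KO against WT (from 11), 3 in double-KO against Jmjd1a-KO (from 8), 2 in Jmjd1a-KO against Jmjd1b-KO (from 7) and 7 in the interaction (from 12). With a log2 difference of at least 1 required, 2 were called in double-KO against WT, 5 in Jmjd1a-KO against WT and 3 in Jmjd1a-KO against Jmjd1b-KO. In fits to the arrays of the compared groups alone, Jmjd1a-KO against WT had 4 and double-KO against Jmjd1a-KO 3 (the interaction has no such fit), and at an adjusted p under 0.01 they had 2 and 4. Double-KO against Jmjd1a-KO had 5 with array weights and 5, of 10 genes, with the mean of the probe sets of a gene. Without each array in turn the counts were 5 to 9 in double-KO against WT, 1 to 9 in Jmjd1a-KO against WT, 4 to 12 in Jmjd1b-KO against WT, 5 to 9 in double-KO against Jmjd1a-KO, 9 to 12 in double-KO against Jmjd1b-KO, 3 to 9 in Jmjd1a-KO against Jmjd1b-KO and 8 to 12 in the interaction. The causes of these changes in the counts were not tested. Except for the whole table, the share of all probe sets called under each alternative is not given here. Nothing is read about the members from these counts. With the replicate block, which only shares numbers, 61 of the 68 calls held and 7 were lost, and the counts were 7, 6, 10, 8, 12, 7 and 11 in double-KO against WT, Jmjd1a-KO against WT, Jmjd1b-KO against WT, double-KO against Jmjd1a-KO, double-KO against Jmjd1b-KO, Jmjd1a-KO against Jmjd1b-KO and the interaction. Differences that moved by over 1.5 times were those of Anxa1, Tpm1 and Tpm2 given with their values above, and those of Tpm1 as a gene mean in Jmjd1a-KO against WT (-0.20) and double-KO against Jmjd1a-KO (0.24). Levels near the lower quartile of the arrays limit the values of Myl9 and Actc1. Levels near or below it also limit those of Col3a1 and Ptn in Jmjd1b-KO cells and of Mymx and Ttn in double-KO cells. Acta2, Tagln and Anxa1 in Jmjd1b-KO cells and Cnn1 in double-KO cells lay not far above the array medians.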
